A study of Danio rerio with 9 samples.

Results

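Embryos injected with a dhps morpholino were set against embryos injected with a control morpholino, across all genes of the deposited count table. The comparison uses 6 of the 9 libraries of the series, the 3 labelled dhps and the 3 labelled control, chosen by their treatment label. Of 24614 genes in the table, 17031 had enough reads to be tested and 7583 did not. Each library held polyadenylated RNA of whole zebrafish (Danio rerio) bodies, sampled 24 hours after fertilization per the series design, while the treatment note counts the same 24 hours from the morpholino. The other 3 libraries, from embryos given an eif5a1/2 morpholino, entered the fit for its estimate of spread and are quoted beside the results. Every group, controls included, had received a morpholino, an antisense oligomer that blocks the translation or the splicing of its target. The type, dose and sequence of the morpholinos, the fish strain, the number of embryos per library and whether the libraries came from separate clutches were not stated in these sources. The p-values therefore measure the spread between these libraries, which may be technical.

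The dhps gene encodes deoxyhypusine synthase, which moves part of the polyamine spermidine onto a lysine of the translation factor eIF5A. The hydroxylase encoded by dohh then completes the rare amino acid hypusine. Hypusinated eIF5A binds the ribosome and helps it through slow stretches of a coding sequence and at the end of translation. In the zebrafish embryo of this age the brain regions, the eye, the somites and the first blood circulation are forming, and the yolk supplies lipid and protein.

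The libraries differed along an axis that the injected morpholino did not fully define. Depth was alike, with 16779961 to 16893447 reads in the dhps libraries and 16834136 to 17482536 in the controls. For each library the slope of expression against relative transcript length was measured, in log2 deviation per log2 length. The slopes were 0.119, 0.0495 and 0.0525 in dhps 1, 2 and 3, and -0.112, 0.0633 and -0.139 in control 1, 2 and 3. Control 2 thus lay with the dhps libraries, away from control 1 and control 3. In eif5a1/2 1, 2 and 3 the slopes were -0.133, 0.161 and -0.0622, so comparisons of dhps with eif5a1/2 embryos carry this axis too. The 81 genes of ribosomal proteins, which are short, took 18.1%, 19.9% and 18.9% of the reads in dhps 1, 2 and 3, against 27.1%, 20.5% and 29.1% in control 1, 2 and 3. On the first principal component, which held 62.6% of the variance, dhps 1, 2 and 3 scored 58.7, 27.3 and 34.6, and control 1, 2 and 3 scored -54.6, 24.4 and -72.6. Results are therefore also given without control 2. There every dhps slope is positive and the remaining control slopes, -0.112 and -0.139, are negative. In that fit the morpholino and this axis cannot be told apart, so it does not correct for the axis. A further setting takes the libraries with a positive slope alone, where control 2 is the only control. In that setting eif5a1/2 also has 1 library, so all p-values rest on the spread of the 3 dhps libraries, and control 2 is assumed to vary as they do.

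**Figure D1:**
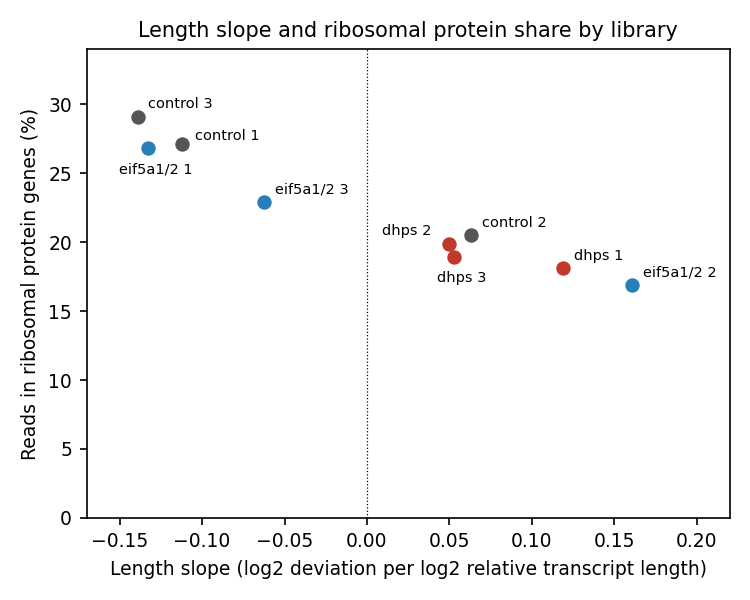
Each point is a library, with its length slope (log2 deviation per log2 relative transcript length) on the x axis and the percent of its reads in ribosomal protein genes on the y axis. The 3 dhps libraries (red) lie between 18.1% and 19.9% at positive slopes, eif5a1/2 libraries are blue, and of the controls (grey) only control 2, at 20.5%, has a positive slope.

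The targeted transcript was lower in the dhps embryos, by a margin that only just passed the test. The dhps gene (gene ID 406329) had 10.27, 9.6 and 8.27 CPM (reads scaled to library size) in the dhps libraries, against 13.01, 14.7 and 15.7 CPM in the controls. All dhps libraries were below all controls. The log2 difference was -0.62 ± 0.12 (SE; edgeR adjusted p = 0.0485), and it passed in 1 of the 6 fits that leave out a compared library. In the positive-slope libraries it was -0.65 (adjusted p = 0.139) and with library totals in place of scaled sizes -0.26 (adjusted p = 0.45). In the deposited TPM, dhps averaged 5.81 in dhps libraries and 5.99 in controls. TPM is a level per transcript length, scaled to the same total in every library. It therefore also depends on the other genes of a library, such as the ribosomal protein genes above, and is not an unscaled check. A morpholino that blocks translation need not lower its transcript. The substrate genes eif5a and eif5a2, near relatives that can share reads, had log2 differences of -0.33 and 0.52 (adjusted p = 0.246 and 0.282), and dohh one of -0.08 (adjusted p = 0.857). On library totals eif5a and dohh turned to 0.06 and 0.32.

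At an adjusted p under 0.05, 226 genes differed between dhps and control embryos, which is 1.33% of those tested, and 19.7% had an unadjusted p under 0.05. Of these, 107 were higher (0.628%) and 119 lower (0.699%) in dhps embryos. The median size of the log2 change was 1.06 among the higher and 1.13 among the lower genes, and 56 higher and 68 lower genes changed at least 2-fold. The CPM of the 3 dhps and 3 control libraries did not overlap for any of the 226, and they did not overlap for 30.9% of all genes tested. Over all genes the median log2 difference was 0.0026. The fit without control 2, where slope and group cannot be told apart, called 4.82% of its genes (2.23% higher and 2.59% lower). In it 103 of the 107 higher and 118 of the 119 lower genes still passed. In the positive-slope libraries alone 46 and 64 did, in a fit that called 1.06% (0.328% higher and 0.727% lower). With the length slope as covariate the fit called 5.72% (2.71% higher and 3.01% lower), and DESeq2 called 6.05% (2.35% higher and 3.7% lower). In all 6 fits that leave out a compared library, 25 of the higher and 19 of the lower genes passed, and 62 and 67 passed in at most 1, so most single calls rest on the full set of libraries. With library totals in place of scaled sizes 94 genes were called, 66 higher and 28 lower, and the median of all genes moved to 0.365.

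Across 44 lists of genes for pathways and cell types, 57 of the 226 genes were members of a list. The lists with the most members called were those of stress-induced arrest and apoptosis, all higher, and of neural progenitors, all lower. Among cell cycle inhibitors 4 members were higher, 3 of which are also in the stress list, and 4 were lower in each of the lists of plasma proteins and of skeletal muscle. The remaining lists held at most 3 called members in a direction. Each count of members called in the fit to 9 libraries, here and below, stands beside 0.628% of all genes higher and 0.699% lower. The lists were chosen with earlier results of these data known, so their counts are not independent tests. In bulk RNA, fewer cells of a type and less RNA per cell cannot be told apart.

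**Figure D2:**
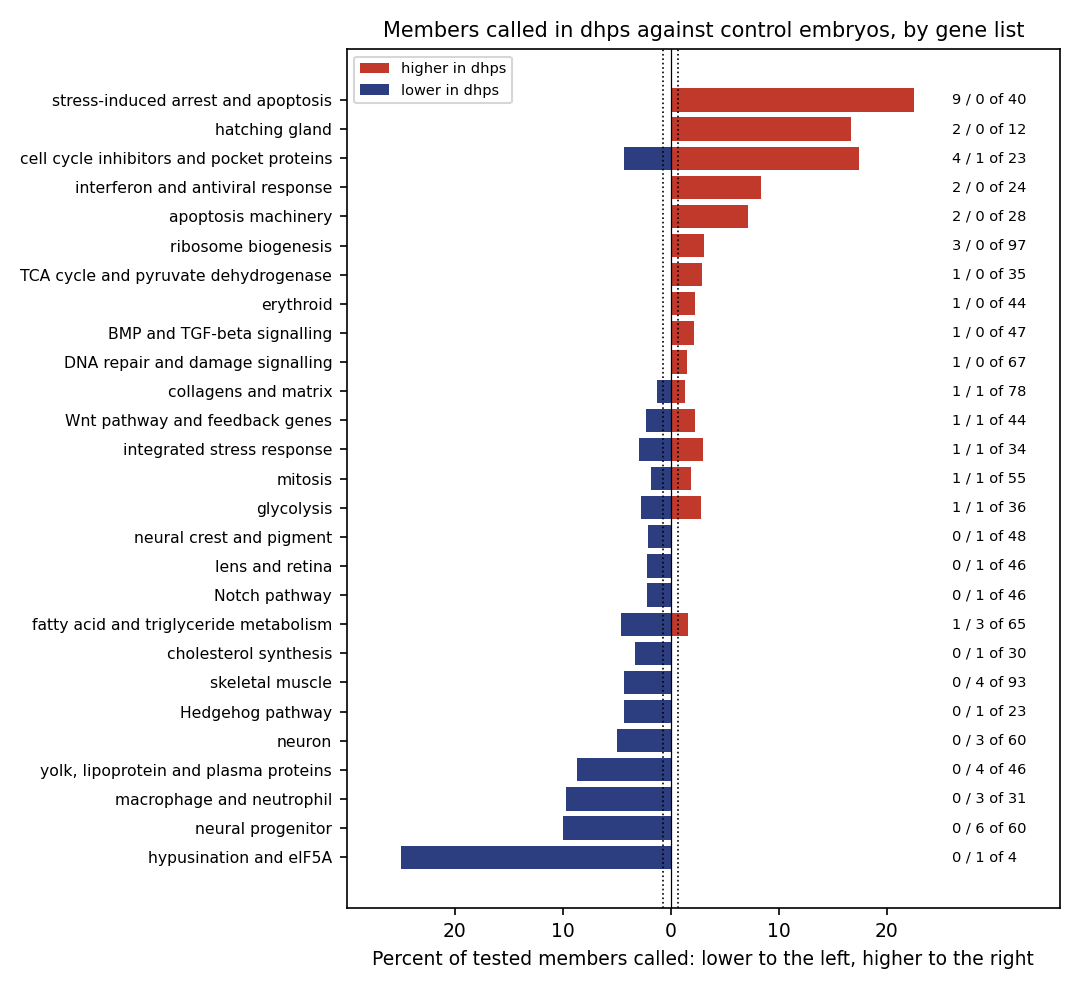
For each list with a called gene, bars show the percent of its tested members that were higher (red, to the right) or lower (blue, to the left) in dhps than in control embryos at an adjusted p under 0.05; the numbers on the right are higher / lower of members tested. Dotted lines mark the percent over all genes, 0.628% higher and 0.699% lower; the list of stress-induced arrest and apoptosis reaches 22.5% higher, and the hypusination list, with 1 lower, has 4 members.

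Several genes that act in growth arrest and apoptosis after stress were higher in dhps embryos. Of 40 tested members of that list, 9 rose and 0 fell, against 0.628% and 0.699% of all genes. The list was chosen with earlier results of these data known, so this contrast is not an independent test. The 9 genes were the ubiquitin ligase gene mdm2, the mitochondrial apoptosis trigger bbc3, sesn3, cdkn1a, gadd45aa, casp8, phlda3, baxa and ccng1. The whole list had a median log2 difference of 0.49. That median was 0.68 without control 2, 0.18 in the positive-slope libraries, 0.17 in the fit with the length covariate and 0.81 on library totals. Without control 2, with the length covariate and on library totals 13, 13 and 8 members were higher. The first 2 of these fits called 2.23% and 2.71% of all genes higher. With the length covariate 1 member was lower, as by DESeq2. The summed level of the list was 3989 to 4813 CPM in dhps libraries and 2624 to 2758 CPM in controls. Of this, ccng1 gave 2125 to 2703 CPM in dhps libraries and 1189 to 1430 CPM in controls.

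The gene cdkn1a encodes an inhibitor of cyclin-dependent kinases. It had 48.4, 43.8 and 53 CPM in dhps libraries, against 17.7, 18.9 and 12.97 CPM in controls. No library of the groups overlapped, and in the positive-slope libraries the log2 difference was 1.35 (adjusted p = 0.00381). Initiator caspase gene casp8 had 42.9, 51.4 and 55.5 CPM in dhps libraries, against 17.1, 23.1 and 20.04 CPM in controls. It rose by 1.31 ± 0.16 on the log2 scale (adjusted p = 0.00465), and the lowest dhps library was above the highest control. For baxa, whose product permeabilizes the outer mitochondrial membrane, the values were 62.2, 63 and 65.2 CPM in dhps libraries and 32.6, 35.5 and 34.1 CPM in controls. The spread within each group was small, and the log2 difference was 0.9 ± 0.12 (adjusted p = 0.00817). The growth arrest gene gadd45aa had 19.5, 14.8 and 20.3 CPM in dhps libraries and 5.94, 8.07 and 7.15 CPM in controls, a rise of 1.36 ± 0.16 (adjusted p = 0.00465). Cyclin G gene ccng1 averaged 2440 ± 290 CPM in dhps libraries and 1277 ± 130 CPM in controls (SD, n = 3 each). Its call, 0.93 ± 0.16 with an adjusted p of 0.0269, was kept in 1 of 6 fits that leave out a compared library, whereas those of mdm2, sesn3, bbc3, cdkn1a, gadd45aa and casp8 were kept in 6 of 6.

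All 9 called members were also higher in dhps than in eif5a1/2 embryos by the test of that difference, which called 0.851% of all genes higher. That test uses the same dhps libraries through which the 9 were called, so it adds no separate evidence for their rise. For casp8 the eif5a1/2 libraries had 7.27, 9.7 and 8.47 CPM, below every control, and dhps embryos exceeded them by 2.55 ± 0.17 (adjusted p = 0.00011). For phlda3, which encodes a small inhibitor of Akt signalling, dhps libraries had 59.8, 58.1 and 65.7 CPM, eif5a1/2 libraries 15.8, 10.8 and 14.4 CPM, and controls 28.5, 27.6 and 29.4 CPM. Of the 28 tested genes of the apoptosis machinery only casp8 and baxa were called, and the median was 0.02 (0.40 on library totals).

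**Figure D3:**
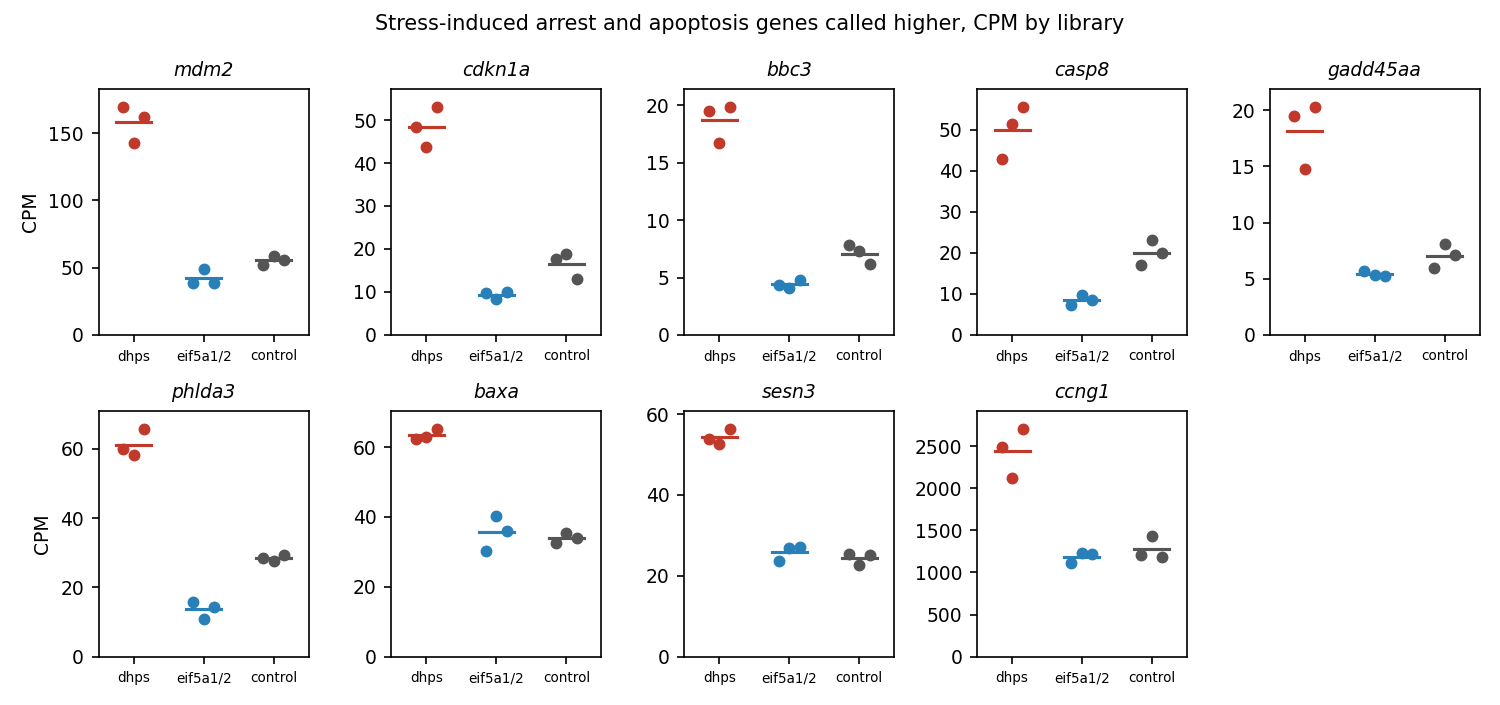
Points are CPM per library for the 9 called genes of stress-induced arrest and apoptosis, in dhps (red), eif5a1/2 (blue) and control (grey) embryos, and bars are group means; each y axis starts at 0. In every panel the 3 dhps libraries lie above all others, as for casp8 at 42.9 to 55.5 CPM against at most 23.1 CPM.

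Of 23 tested cell cycle inhibitors and pocket proteins 4 rose and 1 fell, and 3 of those that rose, cdkn1a, gadd45aa and ccng1, are also in the list above. The gene that fell, gadd45gb.1, is a relative of gadd45aa: it had 36.2, 45.4 and 40.9 CPM in dhps libraries, against 59.8, 64.5 and 70.6 CPM in controls (log2 -0.67 ± 0.12, adjusted p = 0.0297). The relatives thus lay on opposite sides, with no overlap of the groups for either, as for every called gene. The gadd45gb.1 call was lost without control 1, control 3 or any dhps library, whereas that of gadd45aa held in 6 of 6 fits. The log2 difference of gadd45gb.1 was -0.66 in the positive-slope libraries and -0.31 on library totals (adjusted p = 0.335 on library totals).

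Genes of cell division and genome maintenance were grouped from the calls after their values had been seen, so the group carries no test. Of 10 such genes, 4 were higher and 6 lower. The gene ect2, which activates RhoA at the cleavage furrow in cytokinesis, had 87.8, 75.8 and 87.5 CPM in dhps libraries, against 28.8, 33.5 and 29.4 CPM in controls. Its rise of 1.45 ± 0.15 (adjusted p = 0.00282) passed in 6 of 6 fits and was 1.32 in the positive-slope libraries. The condensin II subunit gene ncapd3 rose by 0.67 ± 0.12 (adjusted p = 0.0323), and the DNA damage factors parp3 and rnf169 rose by 1.23 ± 0.17 and 0.97 ± 0.15 (adjusted p = 0.00918 and 0.017). The structure-specific nuclease gene eme1 had 8.93, 12.4 and 10 CPM in dhps libraries, against 34.4, 30.4 and 44.7 CPM in controls. It was lower in every dhps library (log2 -1.8 ± 0.2, adjusted p = 0.00298). Also lower were the centriole duplication kinase gene plk4 (-0.6 ± 0.11), the securin gene pttg1 (-0.73 ± 0.15), the spindle checkpoint gene spdl1 (-0.75 ± 0.12) and the centriole gene rttn (-0.84 ± 0.15), at adjusted p of 0.0362, 0.0485, 0.0224 and 0.0343. These 4 calls each held in 1 of 6 fits. Among the 55 tested mitosis genes 40 had negative values, with a median of -0.19. The 54 DNA replication genes had a median of -0.16 and no call by edgeR. Before adjustment 3 of them were higher and 12 lower, against 19.7% of all genes in either direction, and 5 were lower by DESeq2. Library totals moved both medians above 0, to 0.17 and 0.21, where all genes had 0.365.

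Among genes of insulin, mTOR and methionine metabolism, grouped after the calls were seen, 5 were higher and 0 lower. The gene mat2al, which encodes an enzyme that makes S-adenosylmethionine from methionine, had 59.1, 56.3 and 64.3 CPM in dhps libraries, against 18.4, 19.0 and 20.9 CPM in controls. The groups lay far apart relative to their spread (1.62 ± 0.13, adjusted p = 0.00117), and the call held in 6 of 6 fits. Sestrin gene sesn3, whose product restrains mTORC1, rose by 1.15 ± 0.1 (adjusted p = 0.0014). The mTORC1 inhibitor gene akt1s1 (PRAS40) rose by 0.86 ± 0.12 (adjusted p = 0.0104), the phosphoinositide 3-kinase regulatory subunit gene pik3r3a by 1.04 ± 0.17 (adjusted p = 0.021) and the ribosomal S6 kinase gene rps6ka3a by 0.71 ± 0.11 (adjusted p = 0.0177). For akt1s1 the eif5a1/2 libraries, at 96.8, 113 and 107 CPM, reached a level near that of the dhps libraries, at 108, 128 and 133 CPM, with controls at 67.3, 70.7 and 65.5 CPM. The difference between dhps and eif5a1/2 embryos was 0.22 ± 0.12 and did not pass (adjusted p = 0.456), which does not show that they were alike. For mat2al the eif5a1/2 libraries stayed at 14.5, 12.2 and 16.7 CPM.

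Secreted signals and matrix genes, also grouped after the calls, held 10 higher and 5 lower genes. Follistatin gene fsta, whose product binds and blocks activins and some BMPs, had 79.6, 68.6 and 80.5 CPM in dhps libraries, against 18.7, 25.9 and 23.1 CPM in controls. This was a rise of 1.75 ± 0.15 (adjusted p = 0.00126), with the lowest dhps library far above the highest control. The growth factor gene igf2a had 39.8, 40.5 and 46.4 CPM in dhps libraries and 22.9, 22.9 and 22.8 CPM in controls (0.89 ± 0.12, adjusted p = 0.00914). The gene igfbp7, for a secreted protein of the insulin-like growth factor binding family, had 35.8, 33.3 and 34.3 CPM in dhps libraries and 17.52, 14.9 and 16 CPM in controls (1.1 ± 0.1, adjusted p = 0.00169). For both genes the dhps and control libraries were separate, as for every called gene. The R-spondin gene rspo1, which enhances Wnt signalling, had 17.4, 15.3 and 23.2 CPM in dhps libraries, 2.01, 1.45 and 1.44 CPM in eif5a1/2 libraries and 5.01, 6.97 and 7.07 CPM in controls. It thus stood highest in dhps and lowest in eif5a1/2 embryos, and exceeded control by 1.55 ± 0.21 (adjusted p = 0.00867) and eif5a1/2 by 3.52 ± 0.24 (adjusted p = 0.00011). The multimerin gene mmrn2b, known from endothelium in mammals, rose by 1.98 ± 0.14 (adjusted p = 0.000519), and the gelatinase gene mmp2 by 0.78 ± 0.14 (adjusted p = 0.0326). On the lower side, wnt16, a Wnt ligand gene, had 3.13, 4.43 and 2.83 CPM in dhps libraries, against 9.37, 9.23 and 8.54 CPM in controls (-1.39 ± 0.19, adjusted p = 0.00914). The left-right and Nodal feedback gene lft2 fell by 2.31 ± 0.35 (adjusted p = 0.014), from reads of 13, 31 and 12 in dhps libraries and 65, 86 and 70 in controls. The lysyl oxidase gene loxl3b fell by 0.88 ± 0.13 (adjusted p = 0.014). The pathway lists as a whole held few calls: 1 of 47 BMP and TGF-beta genes was called, fsta, and of 44 Wnt genes 1 rose and 1 fell.

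In a group formed after the calls, 5 genes of the nucleolus and of rRNA synthesis were higher, and 3 of them belong to the list of ribosome biogenesis. Of 97 tested members of that list 3 rose and 0 fell, against 0.628% and 0.699% of all genes. The nucleolar scaffold gene nolc1 (Nopp140) had 322, 360.1 and 352 CPM in dhps libraries, against 146, 144 and 152 CPM in controls. The rise of 1.23 ± 0.12 (adjusted p = 0.00169) held in 6 of 6 fits. The gene rrn3, whose product recruits RNA polymerase I, had 31.2, 31.4 and 36.1 CPM in dhps libraries and 17.02, 21.1 and 17.4 CPM in controls (0.83 ± 0.12, adjusted p = 0.0124). The pre-rRNA methyltransferase gene ftsj3 rose by 0.88 ± 0.17 (adjusted p = 0.0375). Outside the list, dnttip2 and grwd1, which act in processing and assembly of ribosomal subunits, rose by 0.82 ± 0.15 and 0.55 ± 0.11 (adjusted p = 0.0309 and 0.0485). The list's median was 0.07 (0.44 on library totals), and 59 of its 97 values were positive. With the length covariate it was 0.27 with 25 members higher, against 2.71% of all genes in that fit, and in the positive-slope libraries it was also 0.27 with 2 members higher. No other list gained as many calls from the length covariate.

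Regulators of neural development were the largest group on the lower side. Of 60 tested neural progenitor genes 6 fell and 0 rose, and of 60 neuron genes 3 fell and 0 rose. Over all genes 0.699% fell and 0.628% rose. The 2 lists had medians of -0.15 and -0.22. On library totals these medians were 0.22 and 0.16, below the 0.365 of all genes but above 0. The summed level of the progenitor list was 2553 to 2701 CPM in dhps libraries and 3303 to 3573 CPM in controls. That of the neuron list was 2296 to 2625 CPM in dhps libraries and 3055 to 4632 CPM in controls. Neither overlapped, which does not set these lists apart. The endothelial list, without a call, did not overlap either, at 517 to 539 CPM in dhps libraries and 554 to 558 CPM in controls. Without control 2, 11 progenitor and 5 neuron genes were lower, in a fit that called 2.59% of all genes lower. The medians were -0.13 and -0.2 without control 2, and -0.21 and -0.29 in the positive-slope libraries. With control 2 as the only control there, the latter medians say nothing of the spread between controls.

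When the called genes were grouped by function after their values had been seen, 18 transcription factors of neural development were among them, of which 17 were lower. They span several regions and steps of neurogenesis. The proneural pair ascl1a and ascl1b were both lower: ascl1b had 13.6, 14.4 and 14.1 CPM in dhps libraries, against 32.5, 27.6 and 33.4 CPM in controls, and ascl1a 12.6, 12.9 and 13.3 CPM against 24.8, 19.6 and 25.6 CPM. The dhps libraries differed little among themselves, and control 2 was the lowest control for both. The gene olig2, which specifies motor neuron and oligodendrocyte precursors in the ventral spinal cord, had 6.35, 7.74 and 6.6 CPM in dhps libraries, against 15.16, 11.3 and 16.2 CPM in controls (-1.04 ± 0.18, adjusted p = 0.0254). The paralogs otpa and otpb, needed for dopaminergic and neuroendocrine cells of the hypothalamus, fell by 1.18 ± 0.17 and 1.0 ± 0.15 (adjusted p = 0.011 and 0.014). The homeobox genes gsx1, uncx and barx1 fell by 0.79 ± 0.14, 0.63 ± 0.12 and 1.21 ± 0.22 (adjusted p = 0.0344, 0.0474 and 0.0326). The bHLH genes helt and bhlhe22, of GABAergic midbrain and of interneuron fates in mouse, fell by 1.83 ± 0.33 and 0.95 ± 0.17 (adjusted p = 0.0309 and 0.0286). The hairy-related gene her8a fell by 0.57 ± 0.11 (adjusted p = 0.0472), and her4.2 by 1.37 ± 0.20 (adjusted p = 0.0112), the second from a family of near-identical copies whose reads may be split. In the Notch list her4.2 was the 1 of 46 members called. The list's median was -0.03, with 27 negative and 19 positive values. That median was 0.04 without control 2, -0.18 in the positive-slope libraries, -0.25 with the length covariate and 0.32 on library totals. Without control 2, by DESeq2 and with the length covariate 6, 7 and 13 members were lower and 0 higher. Those fits called 2.59%, 3.7% and 3.01% of all genes lower. On library totals 0 Notch members were called. In the positive-slope libraries the log2 difference of her4.2 was smaller, at -1. The exception among the 18 transcription factors was sox4b, a SoxC gene of immature neurons and other tissues, which rose by 0.88 ± 0.17 (adjusted p = 0.0465). Of these 18 calls only that of ascl1b held in 6 of 6 fits that leave out a compared library.

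A group of membrane and glial genes of the nervous system, again formed after the calls, held 13 called genes, all 13 lower. The radial glia gene fabp7a had 51.6, 61.4 and 55.6 CPM in dhps libraries, against 159, 137 and 166 CPM in controls, and its log2 difference was -1.53 without control 2 and -1.28 in the positive-slope libraries (adjusted p = 0.00245). The proteolipid gene plp1a, of myelinating glia and their precursors, had 34.1, 37.3 and 33.7 CPM in dhps libraries, against 74.9, 63.2 and 72.3 CPM in controls (-1.0 ± 0.11, adjusted p = 0.00379). The dhps values of both were below those of every eif5a1/2 library. This did not hold for neural genes in general: the median log2 difference of dhps over eif5a1/2 embryos was 0.21 for the neuron list and -0.1 for the progenitor list. The myelin adhesion gene mpz fell by 0.87 ± 0.12 (adjusted p = 0.00873), the neuronal membrane gene gpm6aa by 0.96 ± 0.15 (adjusted p = 0.0179), the cell adhesion genes ncam1a and cdh7 by 0.91 ± 0.15 and 0.79 ± 0.11 (adjusted p = 0.0223 and 0.0104) and the secreted factor gene nell2a by 1.91 ± 0.25 (adjusted p = 0.00811). The clathrin adaptor gene snap91, of synaptic vesicle recycling, fell by 0.79 ± 0.15 (adjusted p = 0.04). In the pigment lineage tyrp1b, a melanin synthesis gene, was the 1 of 48 neural crest genes called (2.08%), against 0.699% of all genes lower. It had 39.6, 39 and 36.02 CPM in dhps libraries, against 86.5, 76.3 and 85.3 CPM in controls (-1.11 ± 0.16, adjusted p = 0.012).

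**Figure D4:**
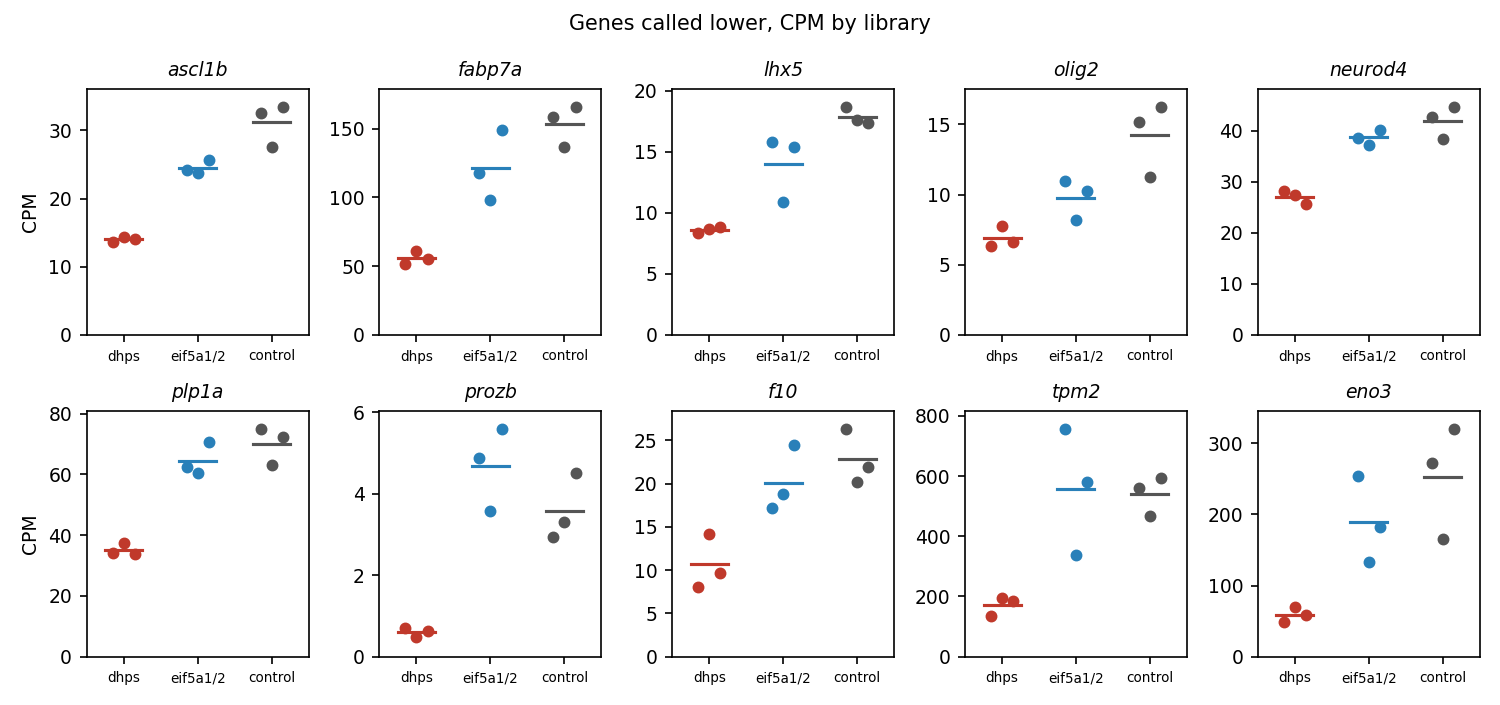
Points are CPM per library for 10 genes called lower, in dhps (red), eif5a1/2 (blue) and control (grey) embryos, and bars are group means; each y axis starts at 0. In every panel the dhps libraries lie below all controls, as for plp1a at 33.7 to 37.3 CPM against 63.2 to 74.9 CPM.

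A few muscle genes were lower. Of 93 tested skeletal muscle genes 4 fell and 0 rose, against 0.699% and 0.628% of all genes. The list's median was -0.13 (0.23 on library totals). Its summed level was 44694 to 48247 CPM in dhps libraries and 51222 to 68637 CPM in controls. The tropomyosin gene tpm2 had 134, 194 and 184 CPM in dhps libraries, against 562, 468 and 595 CPM in controls (-1.67 ± 0.28, adjusted p = 0.0235). The muscle enolase gene eno3 had 49.4, 69.7 and 57.9 CPM in dhps libraries, against 273, 165 and 320.1 CPM in controls (-2.1 ± 0.3, adjusted p = 0.0104). Control 2 was again the lowest control for both, and against it alone the log2 differences were -1.46 and -1.49. The troponin I gene tnni1d fell by 1.83 ± 0.20 (adjusted p = 0.00298), and mibp2, which encodes a muscle integrin binding protein with nicotinamide riboside kinase activity, by 2.59 ± 0.22 (adjusted p = 0.00126). Both held in 6 of 6 fits, while the eno3 call was lost without control 1, control 3, dhps 1 or dhps 3. The kelch gene klhl40a, needed for thin filaments, was higher instead, at 19.6, 25.1 and 22.5 CPM in dhps libraries and 12.9, 11.8 and 10.25 CPM in controls (0.94 ± 0.18, adjusted p = 0.0449). The heart list held no call among 21 genes by edgeR and 0 by DESeq2. Before adjustment 1 was higher and 4 lower, against 19.7% of all genes in either direction.

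Several genes for plasma proteins made by the yolk syncytial layer and liver were lower. Of 46 tested members of the list of yolk, lipoprotein and plasma proteins 4 fell and 0 rose. Over all genes 0.699% fell and 0.628% rose. The list's median was -0.45, and -0.07 on library totals, -0.58 without control 2 and -0.24 in the positive-slope libraries. Of its 46 values 36 were negative. The summed level was 18148 to 21737 CPM in dhps libraries and 22624 to 34935 CPM in controls. The coagulation factor X gene f10 had 8.09, 14.2 and 9.69 CPM in dhps libraries, against 26.3, 20.2 and 21.9 CPM in controls (-1.1 ± 0.22, adjusted p = 0.0485). Its call was lost without control 1, control 3, dhps 1 or dhps 3. Factor VII gene f7 had 9, 11 and 9 reads in dhps libraries and 41, 36 and 42 in controls, and the protein Z gene prozb had 14, 9 and 12 reads in dhps libraries and 41, 63 and 58 in controls. Both encode vitamin K-dependent plasma proteins, as f10 does, and the log2 differences of f7 and prozb were -2.4 ± 0.31 and -2.55 ± 0.29 (adjusted p = 0.00779 and 0.00379). The complement gene c3a.6 fell by 1.29 ± 0.18 and the lectin gene hbl1 by 1.13 ± 0.21 (adjusted p = 0.0104 and 0.0381). The carboxypeptidase N gene cpn1 was higher, by 0.63 ± 0.11 (adjusted p = 0.0309). No gene of the liver and gut endoderm list was called by edgeR among 45 tested, and 5 were lower by DESeq2. Before adjustment 1 was higher and 11 lower, against 19.7% of all genes in either direction. The summed level of the list was 1454 to 1644 CPM in dhps libraries and 1964 to 2116 CPM in controls.

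Metabolic genes of liver, peroxisome and lipid handling split, with 9 higher and 7 lower in a group formed after the calls. Lower were the glycolate oxidase gene hao1 (-1.15 ± 0.2, adjusted p = 0.0283), the peroxisomal fatty acid oxidation gene ehhadh (-1.38 ± 0.22, adjusted p = 0.0196), the cholesterol esterification gene soat2 (-2.29 ± 0.33, adjusted p = 0.0108) and the mevalonate decarboxylase gene mvda (-1.72 ± 0.22, adjusted p = 0.00669). For mvda the dhps libraries had 4.81, 5.34 and 5.97 CPM, against 17.4, 16.04 and 19.9 CPM in controls, and it was the 1 of 30 cholesterol synthesis genes called. Higher were the glycerol-3-phosphate dehydrogenase gene gpd1a, the alkaline ceramidase gene acer1, the mitochondrial carnitine palmitoyltransferase gene cpt1ab and the lysophospholipid acyltransferase gene lpcat2. For gpd1a the dhps libraries had 34.99, 38.7 and 41.2 CPM, against 13.01, 13.9 and 16.8 CPM in controls (1.4 ± 0.16, adjusted p = 0.00379). The ceramidase gene acer1 had 7.79, 8.54 and 8.11 CPM in dhps libraries, against 2.65, 2.78 and 2.41 CPM in controls (1.64 ± 0.15, adjusted p = 0.00157). Both calls held in 6 of 6 fits, and that of cpt1ab (0.65 ± 0.11, adjusted p = 0.0286) in 1. The mitochondrial phosphoenolpyruvate carboxykinase gene pck2 had 259, 263 and 275 CPM in dhps libraries, 277, 214 and 218 CPM in eif5a1/2 libraries and 143, 138 and 133 CPM in controls. Its rise over control was 0.94 ± 0.13 (adjusted p = 0.00951), while the difference from eif5a1/2 embryos was 0.17 ± 0.13 and did not pass (adjusted p = 0.603). Among the other 33 tested genes of the integrated stress response, to which pck2 belongs, the stress-induced gene nupr1 fell by 1.4 ± 0.27 (adjusted p = 0.0389) and no further member was called.

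In groups formed after the calls were seen, 7 called genes of Mediator and transcription cofactors held 2 higher and 5 lower, and 6 of endosomes and vesicle traffic held 3 higher and 3 lower. The Mediator subunit genes med11 and med8 were both lower: med11 had 8.73, 11.7 and 7.96 CPM in dhps libraries, against 29.96, 24.8 and 31.1 CPM in controls, and med8 8.24, 8.7 and 9.42 CPM against 33.3, 21.4 and 45.7 CPM. The controls of med8 were spread widely and its call, -1.92 ± 0.32 with an adjusted p of 0.0223, held in 1 of 6 fits, that of med11 (-1.6 ± 0.2, adjusted p = 0.00665) in 4 of 6. The zinc finger gene yy1b had 18.4, 21.7 and 19.1 CPM in dhps libraries, against 37.1, 38.95 and 39 CPM in controls (-0.96 ± 0.1, adjusted p = 0.00291). The gene qser1, whose human product protects DNA from methylation, fell by 1.22 ± 0.11 (adjusted p = 0.0014), and tnrc6c2, of the microRNA silencing complex, by 1.09 ± 0.12 (adjusted p = 0.00298). These 3 calls held in 6 of 6 fits. Early endosome genes eea1 and eps15l1a fell by 1.39 ± 0.17 and 1.73 ± 0.21 (adjusted p = 0.00494 and 0.00515), also in 6 of 6, and pik3c3, the lipid kinase of endosomes and autophagy, by 0.9 ± 0.15 (adjusted p = 0.0249) in 1. The ubiquitin-conjugating enzyme gene cdc34a, which works with SCF ligases, had 1.64, 2.77 and 1.73 CPM in dhps libraries, against 8.72, 11.01 and 8.54 CPM in controls (-2.21 ± 0.23, adjusted p = 0.00282). On the higher side, the ubiquitin ligase gene lnx1 had 50.6, 43.9 and 49.5 CPM in dhps libraries, 5.18, 10.27 and 6.78 CPM in eif5a1/2 libraries and 15.16, 19.03 and 16.6 CPM in controls, an excess of 1.5 ± 0.21 over control (adjusted p = 0.0098). The zinc importer genes slc39a1 and slc39a5 rose by 0.74 ± 0.12 and 0.65 ± 0.1 (adjusted p = 0.0223 and 0.014). All 6 called genes of ion and metal transport, a group formed after the calls, were higher, and 0 of these calls held in 6 of 6 fits.

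Leukocyte and antiviral genes gave few calls at low levels. Of 31 tested macrophage and neutrophil genes 3 fell and 0 rose, against 0.699% and 0.628% of all genes. The lysozyme gene lyz had 7.84, 9.5 and 7.64 CPM in dhps libraries, against 21, 15.6 and 22.7 CPM in controls (-1.24 ± 0.23, adjusted p = 0.0372). The neutrophil protease gene npsn fell by 0.85 ± 0.16 (adjusted p = 0.0389) and lect2l by 2.65 ± 0.52 (adjusted p = 0.0441). The list's median was 0.07, and its summed level of 189 to 201 CPM in dhps libraries overlapped the 189 to 211 CPM of the controls. Of 24 antiviral genes, rnf213b and cxcr3.1 rose and 22 were not called, against 0.628% of all genes higher. The antiviral list's median was -0.21 (0.15 on library totals), and 15 of its 24 values were negative. Before adjustment 2 of its members were higher and 7 lower, against 19.7% of all genes in either direction. The cxcr3.1 call was lost without control 1, control 3, dhps 1 or dhps 3.

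Several lists held no called gene by edgeR. Counts before adjustment are those with an unadjusted p under 0.05, which 19.7% of all genes tested had in either direction. Counts near that share do not set a list apart. The 42 proteasome genes had a median of -0.31 (0.09 on library totals and 0.05 in the positive-slope libraries), with 2 higher and 5 lower before adjustment of p and 1 in each direction by DESeq2. The 49 hox genes had a median of -0.09, with 2 higher and 8 lower before adjustment and 3 lower by DESeq2. The 33 heat shock and cytosolic chaperone genes had a median of -0.02, with 8 higher and 2 lower before adjustment and 3 higher by DESeq2. Of these, hsp90aa1.2 came nearest, at 62.7, 79.2 and 67.2 CPM in dhps libraries and 40.8, 37.7 and 48.2 CPM in controls (0.72 ± 0.15, adjusted p = 0.0511). The 20 genes of the metabolism of polyamines, among them the spermidine used by deoxyhypusine synthase, had a median of 0.07. Of these genes 3 were higher and 1 lower before adjustment, and 1 in each direction by DESeq2. Their nearest to the threshold was atp13a2, a lysosomal polyamine exporter gene, at 13, 11.3 and 11.2 CPM in dhps libraries and 17.6, 20.2 and 21.5 CPM in controls (-0.74 ± 0.16, adjusted p = 0.0638). The 47 endothelial genes had a median of 0.02, with 3 higher and 4 lower before adjustment and 1 lower by DESeq2. Each of the 14 cell type lists had between 12 and 93 members with enough reads to test. Few reads suffice for that and some genes are shared between lists, so this does not test the whole-body label.

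Direct tests of dhps against eif5a1/2 embryos called 311 genes, 1.83% of those tested, with 145 higher (0.851%) and 166 lower (0.975%) in dhps. This comparison shares the dhps libraries with the one above, so no overlap of their calls is given. Of the eif5a1/2 libraries only eif5a1/2 2 had a positive length slope, as all dhps libraries had. For nolc1 the dhps libraries exceeded the eif5a1/2 libraries, at 131, 151 and 153 CPM, by 1.25 ± 0.12 (adjusted p = 0.000722), and for fsta, at 19.6, 23.4 and 19.3 CPM in eif5a1/2 libraries, by 1.87 ± 0.15 (adjusted p = 0.000251). For eme1 dhps embryos were below eif5a1/2 embryos (log2 -1.76 ± 0.2, adjusted p = 0.00216). By contrast the difference for ascl1a was -0.31 ± 0.14 (adjusted p = 0.337), for olig2 -0.5 ± 0.18 (adjusted p = 0.228) and for ncam1a -0.26 ± 0.15 (adjusted p = 0.475), with eif5a1/2 values of 14.3 to 18.1, 8.16 to 10.98 and 35.3 to 46.1 CPM. Those 3 genes, chosen after their values were seen, did not pass between the knockdowns, and their levels in eif5a1/2 embryos lay between those of dhps embryos and controls, except that 1 eif5a1/2 library overlapped the dhps libraries for ncam1a.

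Since no called gene overlapped between dhps and control libraries, its direction against control 2 alone was fixed by the call, and only the size could differ. The log2 difference was 1.26 for nolc1, 1.65 for mat2al, 1.55 for fsta, -0.98 for ascl1b and -2.45 for prozb in the positive-slope libraries, against 1.23, 1.62, 1.75, -1.15 and -2.55 in the fit to all libraries. In that setting 60 genes were higher and 133 lower.

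**Figure D5:**
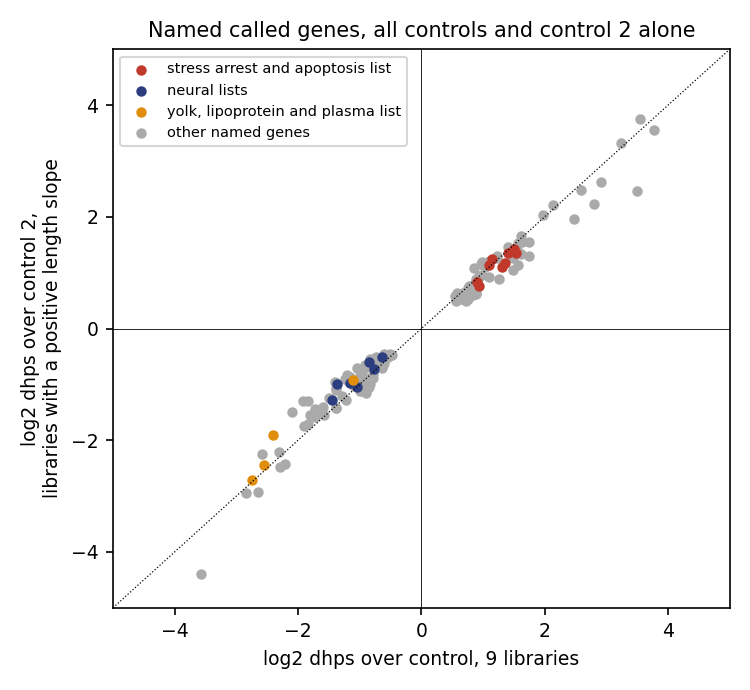
Each point is a named called gene, with its log2 difference of dhps over control in the fit to 9 libraries on the x axis and that of dhps over control 2 in the positive-slope libraries on the y axis; the dotted line marks equality. Colours mark lists (red, stress-induced arrest and apoptosis; blue, neural; orange, yolk, lipoprotein and plasma), and points nearer the x axis than the line have a smaller difference against control 2. The direction of each is fixed by its call; examples are ascl1b at -1.15 and -0.98 and mat2al at 1.62 and 1.65.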

How the data were processed

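RNA-seq libraries from 9 whole-body samples, 3 per group, were analysed. Per the file headers, the authors deposited 1 table with expected counts per gene and library, and the same table holds deposited TPM values. The build GRCz11 comes from the submitters' processing notes. The names of the aligner and counter and the strand setting were not given in the sources used here. Tables of fold changes that the authors deposited were not used. Between 91.39% and 93.95% of the counts per library were whole (tolerance 1e-06), and all were rounded. Genes were filtered with filterByExpr, scaled by TMM and tested with edgeR 4.0.16 (R 4.3.3; glmQLFit, glmQLFTest) in 1 fit to 9 libraries, leaving 6 residual degrees of freedom. Benjamini-Hochberg adjustment ran over all 17031 tested genes, which held at least 99.84% of each library's reads. Any adjusted p printed with no tool comes from edgeR. The common biological coefficient of variation was 0.225. CPM use the scaled library sizes, and SE derive from the F statistic. Deposited counts do not separate molecules from PCR copies.

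The members, the 44 lists and the rules were chosen with earlier results of these data known, and the functional groups of called genes were formed after their values were seen. The rule named dhps, dohh, eif5a and eif5a2, up to 4 called members per list (up to 2 where none was called), and up to 12 genes per direction with the smallest adjusted p that passed in every fit leaving out a compared library, with a mean CPM of at least 1 and no overlap of groups. It gave 104 genes. Of 2189 list symbols 2140 were matched, 105 of them through synonyms in NCBI's GRCz12tu gene table, which served for names alone. The length slope used 9436 genes with a TPM of at least 1 and at least 20 reads. The alternatives were RLE scaling, library totals, other filters, the replicate number as a block, the length slope as a covariate, each library left out, the groups fitted alone, the positive-slope libraries alone, DESeq2 1.42.0, limma-voom (limma 3.58.1), an adjusted p under 0.01 and a 2-fold minimum. The code was tested on simulated data.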

Additional observations from a re-analysis of the deposited data

How the results depend on the processing

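For dhps against control, 226 genes were called; RLE scaling, no filter, a stricter filter, the 2 groups fitted alone, the positive-slope libraries alone and limma-voom gave 226, 200, 235, 310, 193 and 206. Larger moves were 94 with library totals (66 higher and 28 lower, against 107 and 119), 974 with the length covariate, 853 with DESeq2, 65 at an adjusted p under 0.01 and 124 with a 2-fold minimum. Leaving out 1 library gave 46 to 844: 60, 844 and 64 without control 1, 2 and 3, 61, 81 and 46 without dhps 1, 2 and 3, and 217, 625 and 118 without eif5a1/2 1, 2 and 3. For dhps against eif5a1/2, 311 genes were called, against 138 with library totals, 1735 with the length covariate, 170 with the 2 groups alone, 777 with DESeq2, 79 at an adjusted p under 0.01, 158 with a 2-fold minimum and 73 to 864 with 1 library left out. Under the replicate block the counts were 160 and 188. Same-numbered dhps and control libraries had correlations of deviations of -0.337, -0.413 and 0.0988. Of the dhps libraries only dhps 3 correlated best with its own number. Deviations from a mean of 3 libraries constrain each other, so these correlations cannot decide whether the numbers pair the samples. The cause of these moves was not tested. Among the 104 genes named by rule, 3 turned direction, none of them called: eif5a and nfil3 on library totals (0.06 and 0.02), and dohh there (0.32), with the length covariate (0.34), in the positive-slope libraries (0.31) and without control 3 (0.05) or dhps 1 (0.01). Of their calls, leaving out dhps 1, 2 or 3 ended 35, 27 and 37, control 1, 2 or 3 ended 34, 1 and 30, library totals 35, the positive-slope libraries 23 and the block 15.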

Other observations

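Hexokinase gene hk2 had 23.2, 24.5 and 24.0 CPM in dhps libraries, against 14.5, 16.8 and 16.8 CPM in controls (0.57 ± 0.1, edgeR adjusted p = 0.0283), while eno3 was the lower call among 36 glycolysis genes. Hatching enzyme gene he2 had 80.7, 66 and 97.5 CPM in dhps libraries, against 30.8, 43 and 39.6 CPM in controls (1.1 ± 0.21, adjusted p = 0.0394). The other call among the 12 hatching gland genes, bmb, is known for nuclear membrane fusion in early cleavage and rose by 0.99 ± 0.14 (adjusted p = 0.0104). Over all genes 0.628% were called higher. The hk2 and he2 calls were each lost without control 1, control 3 or any dhps library, and that of bmb without control 1, dhps 1 or dhps 3. The hyaluronan receptor gene cd44a had 45, 36 and 49 reads in dhps libraries, against 4, 9 and 2 reads in controls. Of 44 erythroid genes 36 had negative values, with a median log2 difference of -0.35 (0.03 on library totals). At an unadjusted p under 0.05, 2 were higher and 14 lower, against 19.7% of all genes in either direction, and the 1 called member, the repressor gene klf3, was higher by 0.58 ± 0.11 (adjusted p = 0.0461). The summed erythroid level of 3505 to 6710 CPM in dhps libraries overlapped the 5636 to 11959 CPM of the controls.

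Genes without a list held some of the steadiest calls. The deacetylase gene hdac10, whose product removes acetyl groups from polyamines in mammals, had 6.75, 7.95 and 7.85 CPM in dhps libraries, against 15.7, 12.8 and 15.4 CPM in controls (-0.96 ± 0.13, adjusted p = 0.00867). It was not a member of the polyamine list. The gene phf23a, of a PHD finger protein, had 21.9, 23.1 and 23.5 CPM in dhps libraries, against 7.29, 9.44 and 7.77 CPM in controls (1.48 ± 0.13, adjusted p = 0.0014). The gene fahd2a, of the fumarylacetoacetate hydrolase family, had 106, 117 and 110.0 CPM in dhps libraries, against 339, 322 and 332 CPM in controls (-1.57 ± 0.17, adjusted p = 0.00298). For osbpl10b, an oxysterol-binding protein gene, the dhps libraries had 36.5, 32.4 and 38.8 CPM, eif5a1/2 libraries 35, 37.7 and 35.8 CPM and controls 21.8, 23.9 and 23.7 CPM. Its difference was 0.63 ± 0.1 from control (adjusted p = 0.0217) and -0.01 from eif5a1/2 embryos (adjusted p = 0.971), which does not show that the knockdowns were alike.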
